A study of Drosophila melanogaster with 18 samples.

Results

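The centromere-proximal ends of chromosome arms 2L, 3L, 3R and X of Drosophila melanogaster held 596 of the 13218 transcription initiation sites in the genome-wide list, 4.51% of it. A site was counted there by its dm3 position alone. The limits were positions above 21000000 on 2L, above 22500000 on 3L and above 21000000 on X, and positions up to 1000000 on 3R, whose low positions are the ones next to the centromere. The ends held 161 sites on 2L, 173 on 3L, 150 on 3R and 112 on X, and the rest of the same 4 arms held 9216. Other sequences of the genome entered only where they are named.

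The sites came from STAP-seq, an assay in which short pieces of genomic DNA, about 100 to 250 bp, are cloned into a reporter plasmid and the start points of the transcripts made from each piece are sequenced. The DNA was from embryos of the sequenced fly strain (y; cn bw sp) and the plasmids were tested in S2 cells, a single embryonic cell line, so every site of this list was measured in that line only. The groups whose labels name this list carried the zfh1 enhancer (2 samples) or no enhancer (2 samples) in the vector. The list gives a position, a strand and a serial number for each site, and no level, read count or sample, so the enhancer groups could not be compared, there are no replicates, and the depth is unknown. The other 14 samples of the 18 in the series carry a library of bacterial artificial chromosomes (BACs). Only a list of sites from that library was used, for its overlap with the ends. The labels of its zfh1 (3 samples) and no-enhancer (1 sample) groups in S2 cells name that list. The other BAC groups are labelled sgl, ham, ncm and ssp3 in S2 cells and tj in OSC cells, with 2 samples each.

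The DNA next to a centromere is largely heterochromatin in the fly. It is compacted by histone marks and heterochromatin proteins, rich in remnants of transposable elements, and poor in genes, yet it holds active genes such as light on 2L, which depends on its heterochromatic setting. The tandem histone genes lie towards the base of 2L. The flamenco locus, which gives rise to piRNAs, small RNAs that silence transposons in the ovary, lies at the base of X and is built of transposon remnants that mostly run in the same direction. On a plasmid a fragment is tested away from its chromosomal setting, so a site shows what the sequence could start there. None of these genes was assigned a site, since no dm3 annotation or genome sequence was used here.

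The outermost listed sites show how far the ends reach. They lay at 22986026 on 2L (plus strand), at 24501793 on 3L (plus), at 361 on 3R (plus) and at 22412506 on X (minus). Measured from the limits to these sites, the ends covered 1.99 Mb of 2L, 2.002 Mb of 3L, 0.9996 Mb of 3R and 1.41 Mb of X. The limits fell between listed sites. The gap across the limit exceeded the upper quartile of gaps of both end and rest on 3L, 3R and X. It did not on 2L. On 2L the last site inside was at 21005866 (minus) and the nearest outside at 20997130 (plus). On 3L these were 22516042 (minus) and 22497319 (plus). On 3R they were 976667 and 1000363, and on X 21043104 and 20994812, all 4 on the plus strand.

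The arms did not share a density of sites at their bases. The 3R end was denser than the rest of its arm, with 150.1 sites per Mb (exact Poisson 95% interval 127.0 to 176.1) against 108.8 (104.9 to 112.9) in the rest. The 3L end was sparser, with 86.4 per Mb (74.0 to 100.3) against 104.7 (100.5 to 109.0). The 2L end had 81.1 per Mb (69.0 to 94.6) against 94.0 (89.9 to 98.3) in the rest, and the X end had 79.3 (65.3 to 95.4) against 94.0 (89.9 to 98.3).

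The rate ratio of end over rest was 1.38 on 3R (1.16 to 1.63), with an exact conditional binomial p of 0.00089 after Benjamini-Hochberg (BH) adjustment over the 4 arms. On 3L the ratio was 0.83 (0.70 to 0.96, adjusted exact p = 0.0298). The ratios of 0.86 on 2L (0.73 to 1.01) and 0.84 on X (0.69 to 1.02), both with an adjusted exact p of 0.0790, did not pass the threshold of 0.05. The X ratio passed it with the limit 500 kb farther from the centromere (0.78, adjusted exact p = 0.0065) and against the telomere-proximal end of the same length (0.70, 0.0068). Over the 4 arms the mean log2 ratio was -0.07 ± 0.36 (SD, n = 4 arms), and an exact two-sided sign-flip permutation test over the arms gave p = 0.75. Intervals and p-values treat sites as independent, which neighbouring sites are not. How much of each end could be mapped or was covered by fragments is not known, and its part in the rates was not tested.

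**Figure D1:**
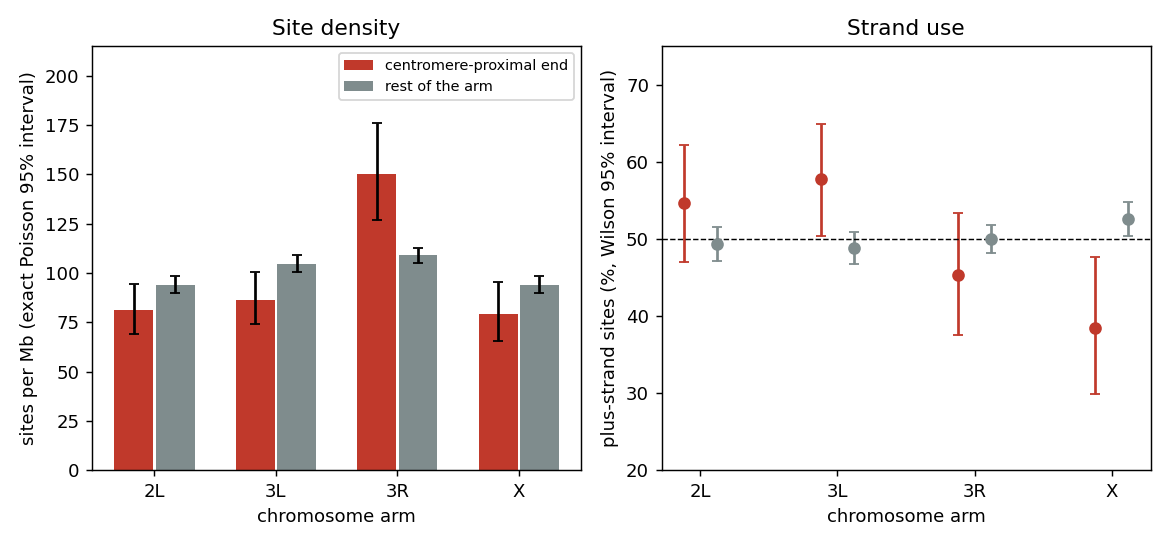
Site density (left, sites per Mb with exact Poisson 95% intervals) and share of plus-strand sites (right, percent with Wilson 95% intervals, dashed line at equal use) in the end and in the rest of arms 2L, 3L, 3R and X. The 3R end stands above the rest of its arm at 150.1 sites per Mb, the other ends lie between 79.3 and 86.4, and the X end has the lowest plus-strand share, 38.4%.

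The 3R end was densest in its outermost part. The outermost 300 kb held 73 sites, 243.6 per Mb (191.0 to 306.3), and the next 200 kb held 8, 40 per Mb (17.3 to 78.8). The remaining 500 kb up to the limit held 69, 138 per Mb (107.4 to 174.6). These stretches were chosen with the positions in view. Cut at the middle of the end instead, the part nearer the centromere had 162.1 sites per Mb (128.7 to 201.4). The farther part had 138.1 (107.4 to 174.7), and the rest of 3R had 108.8. Without the outermost 300 kb the 3R ratio was 1.01, with an adjusted exact p of 0.908, and without its fullest 100 kb window it was 1.19 (0.0649). Both removals took dense stretches from the end only, so the ratio had to fall. With the highest-numbered 25% of all sites left out it was 1.28 (0.0793). The lower rate of 3L missed the threshold when its limit was moved by 250 kb either way (adjusted exact p = 0.0672 and 0.0977) when close same-strand sites were counted once (0.146), and without the highest-numbered 25% (ratio 0.91, 0.290).

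Counted in fixed windows of 100 kb, 3R had 25 sites at 100001 to 200000 and 33 at 200001 to 300000. The fuller of them was equalled or exceeded by 1 other window among the 980 of the 4 arms. It was followed by windows of 3 and 5 sites. Across that drop the 3R end also had its widest gap, 64.2 kb without a site from 319640 to 383808.

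On X the dense windows lay farther in, with sparse windows between them and the base. The window at 21800001 to 21900000 held 23 sites, 14 of them on the minus strand, and the one before it held 18. Without the fuller window the X end had 67.8 sites per Mb (54.5 to 83.4). The widest gaps of the X end were 90.0 kb, from 21944567 to 22034542, and 84.7 kb, from 22164026 to 22248744, both between the dense windows and the centromere. Another of 83.4 kb, from 21681186 to 21764562, lay on the telomere side of the sites in these windows.

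The ends of 2L and 3L were even by comparison. Full windows held 5 to 14 sites with a median of 8 on 2L, and 3 to 16 with a median of 9 on 3L. In the rest of these arms windows ranged from 0 to 28 sites with a median of 8 on 2L, and from 0 to 27 with a median of 10 on 3L. On 2L the widest gap was 90.8 kb, from 21450180 to 21540967, and on 3L it was 62.9 kb, from 23746452 to 23809333. Over all 4 ends 2 of 62 full windows held 25 or more sites, 3.23%, both on 3R, against 8 of 910, 0.88%, in the rest.

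**Figure D2:**
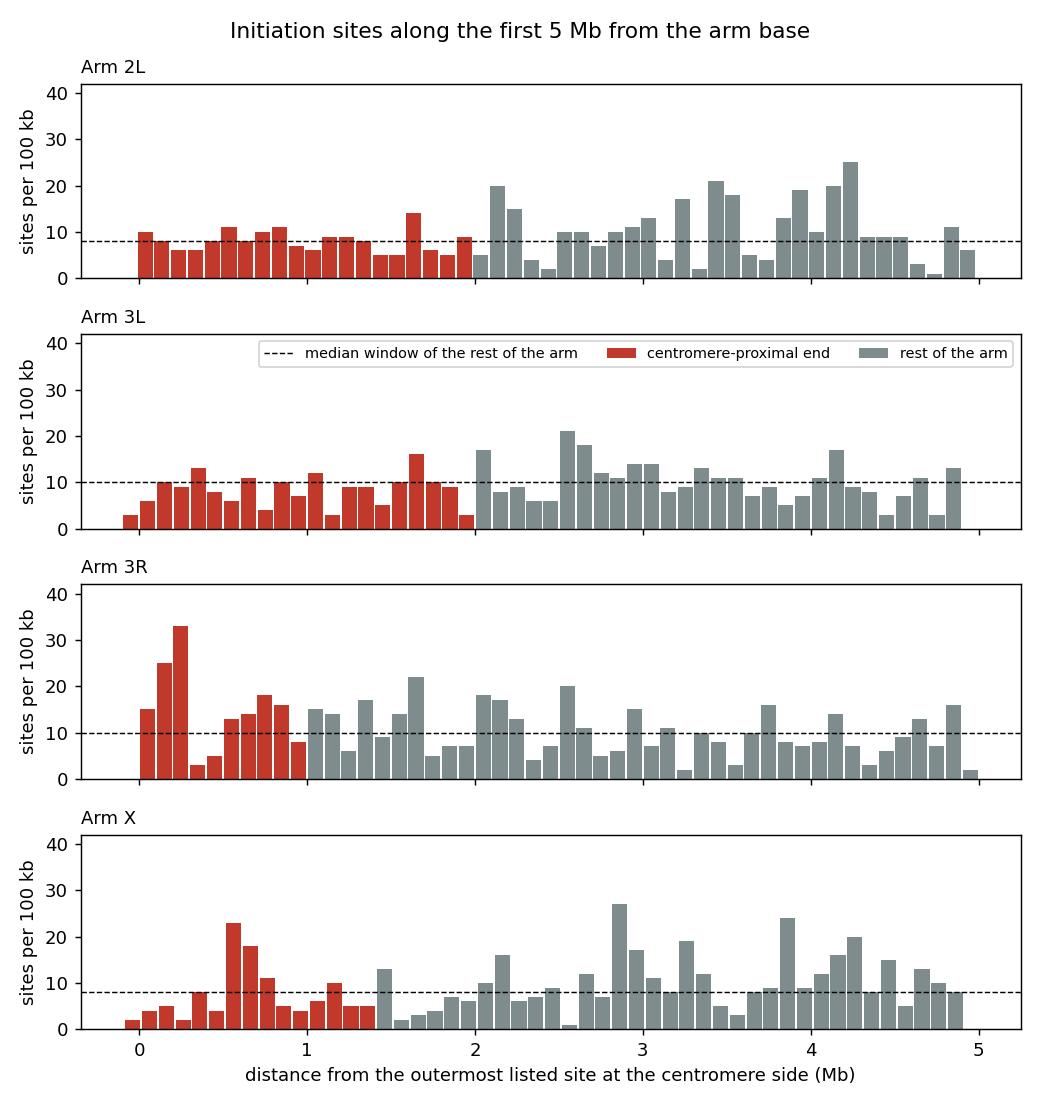
Sites per 100 kb window along the first 5 Mb from the outermost listed site on the centromere side of each arm (x axis in Mb), with the centromere-proximal ends and the rest of the arm in different colours and the median window of the rest as a dashed line. The window next to the base is cut short by the end of the list. 3R peaks at 33 sites within 300 kb of its base and X at 23, while no full window of the 2L and 3L ends exceeds 16.

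Within each arm the median gap was wider where the end was sparser than the rest and narrower where it was denser. Among the ends of 2L, 3L and X it did not follow density, since 3L, the densest of them, had the widest median gap. The median gap between neighbouring sites was 6595 bp in the 2L end against 5855 bp in the rest of 2L, and 8092 bp against 5267 bp on 3L. It was 3366 bp against 5196 bp on 3R, and 6916 bp against 5820 bp on X. Pooled over the arms the medians were 6005 bp in the ends and 5414 bp in the rest.

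Strand use was close to equal when the ends were summed, 299 sites on the plus strand against 297 on the minus strand. The plus share was 50.2% (46.2 to 54.2 by the Wilson 95% interval), and an exact binomial test against an equal split gave p = 0.967. Single ends leaned in different directions. On X the plus strand had 43 sites and the minus strand 69, 38.4% plus (29.9 to 47.6), against 52.6% (50.4 to 54.8) in the rest of X. 3L had 100 plus and 73 minus, 57.8% plus (50.4 to 64.9), against 48.8% (46.8 to 50.8). 2L had 54.7% plus (46.9 to 62.2) against 49.3% (47.1 to 51.5), and 3R 45.3% (37.6 to 53.3) against 50.02% (48.2 to 51.8).

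At the limits used, none of the 4 ends departed from equal use after BH adjustment. The smallest adjusted exact binomial p was 0.0711 on X, followed by 0.0955 on 3L and 0.288 on both 2L and 3R. With the limits 250 kb farther from the centromere 3L, 3R and X all passed (adjusted exact p = 0.0407), and X also passed with its limit 250 kb nearer (0.0138) and with close same-strand sites counted once (0.0433). The X end lay 14.2 percentage points below the rest of X, with a Newcombe 95% interval of -22.95 to -4.68 for the end minus the rest. On 3L the difference was 8.996 points (1.28 to 16.4), and on 2L and 3R the interval held 0. These 4 intervals are not adjusted for their number.

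Read relative to the centromere, plus-strand transcripts run towards it on 2L, 3L and X and away from it on 3R. On this reading 313 of the 596 sites pointed towards the centromere, 52.5% (48.5 to 56.5, exact binomial p = 0.235). The share was 54.7% on 2L, 57.8% on 3L and 54.7% on 3R, and 38.4% on X. With each arm left out in turn it was 51.7% without 2L, 50.4% without 3L, 51.8% without 3R and 55.8% without X, and among these the last alone passed an exact binomial test (unadjusted p = 0.0123). Over the 4 arms the exact sign-flip permutation p for the end minus the rest was 0.875.

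A single long stretch held 23 of the 69 minus-strand sites of the X end. From 21390196 to 21681186, over 291.0 kb, neighbouring sites were all on the minus strand. The nearest plus-strand sites were at 21375313 and 21764562, so no plus-strand site was listed over 389.2 kb. Among all stretches of neighbouring sites on the same strand in the 4 arms this was the longest. The longest in the rest held 17 sites, on 2L from 3059065 to 3152768, also on the minus strand. The stretch was singled out for its length, so its strand count is a description with no test.

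The stretch was not a tight cluster. Of its 23 sites, 17 had no other site within 1000 bp and 2 had a same-strand neighbour within 100 bp. Its density, 79.0 sites per Mb, was close to the 79.3 of the whole X end. Its sites were spread through the serial numbers, from 840 to 13041 with a median of 4242, and 1 of them was among the lowest-numbered 10% of the list. The sites at 21586726 and 21586802 lay 76 bp apart, while 51458 and 71960 bp without any site followed the sites at 21415350 and 21466808.

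Outside the stretch the X end was near equal use, 43 sites on the plus strand against 46 on the minus strand, or 48.3% plus (38.2 to 58.5). On its telomere side there were 13 plus-strand and 10 minus-strand sites, and on its centromere side 30 and 36. The next longest stretch in any end was on 3R, where 11 minus-strand sites followed each other from 279036 to 383808, over 104.8 kb. Stretches of 10 or more sites on the same strand were 2 of 275 in the ends, 0.73%, and 24 of 4245 in the rest, 0.57%. At 8 or more sites the order was the opposite, the same 2 stretches in the ends, 0.73%, against 65, 1.53%, in the rest. Of the full windows with at least 4 sites, 4 of 58 in the ends were all on the same strand, 6.90%, against 22 of 830 in the rest, 2.65%. Of these 4 windows 3 lay in the X stretch and 1 on 3L, at 23700001 to 23800000.

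**Figure D3:**
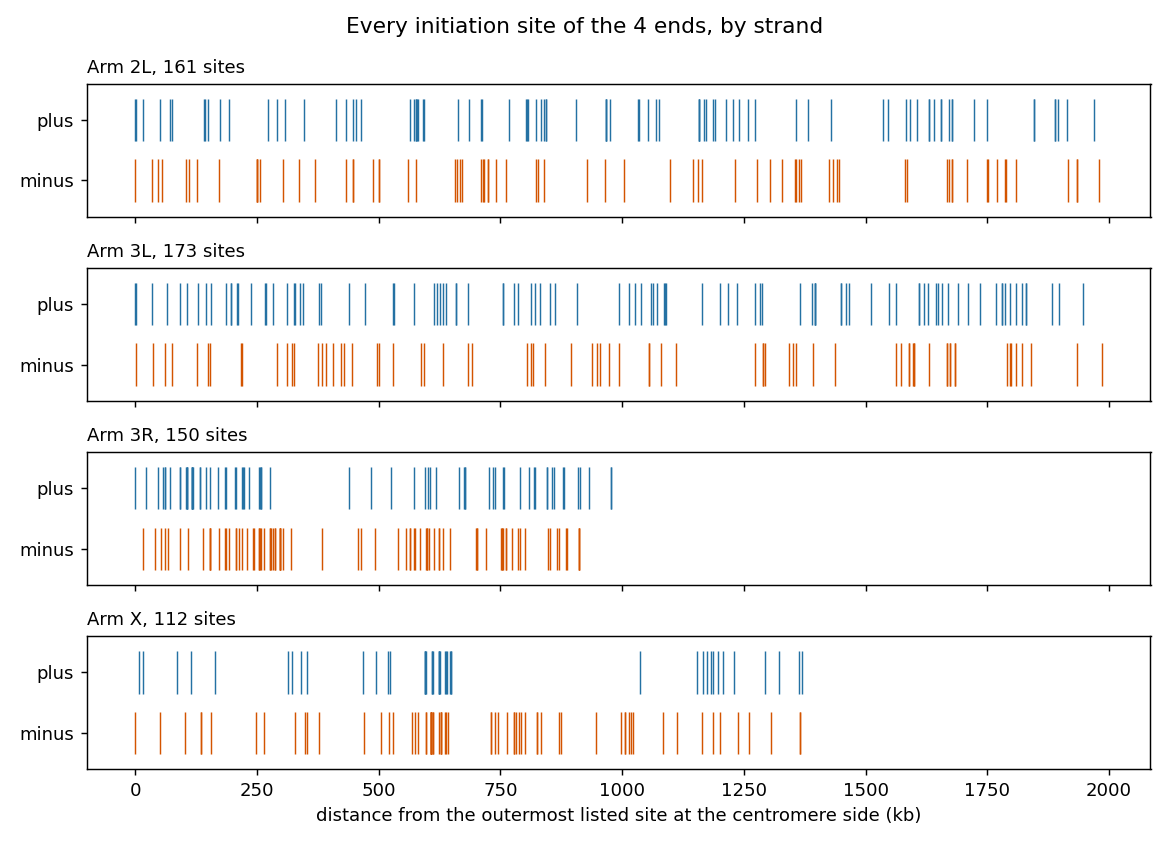
Every site of the 4 ends, drawn as a tick at its distance in kb from the outermost listed site on the centromere side, on the upper row of each panel for the plus strand and on the lower row for the minus strand. The X panel shows the 389.2 kb without a plus-strand site, in which 23 sites lie on the minus strand.

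Close neighbours on the same strand, as in promoters with more than 1 start point, were somewhat rarer in the ends. Another site on the same strand lay within 100 bp for 68 of 596 sites, 11.4% (9.10 to 14.2), against 1354 of 9216, 14.7% (14.0 to 15.4), in the rest. The difference was -3.28 points (Newcombe 95% interval -5.71 to -0.39). 3L accounted for most of it, with 8 of 173 sites, 4.62% (2.36 to 8.86), against 14.3% (12.9 to 15.7) in the rest of 3L. The share was 11.8% against 13.6% on 2L, 12.5% against 15.7% on X, and 18% against 15.1% on 3R.

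The share was lower in 3 of the 4 ends, and an exact sign-flip permutation test over the arms, which with 4 arms cannot reach 0.05, gave p = 0.375. Without 3L the difference was -0.65 points, and against the telomere-proximal ends of the same lengths it was -0.46 points. On the opposite strand a site lay within 100 bp for 6.54% of the sites in the ends (4.82 to 8.82) and 7.96% in the rest (7.43 to 8.53). Within 1000 bp a same-strand site was listed for 23.5% of the sites in the ends and 25.3% in the rest, and an opposite-strand site for 20.3% in the ends and 19.9% in the rest. Intervals for these 3 differences held 0. No other site within 1000 bp was listed for 61.6% of the sites in the ends and 62.2% in the rest, but on 3R for 50.7% in the end (42.7 to 58.6) against 61.3% in the rest (59.5 to 63.0).

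Pairs of sites 22 to 250 bp apart, distances that can fit on a single fragment, numbered 90 in the ends. Pairs less than 22 bp apart can also fit on a fragment but were not counted. Of these, 59 were on the same strand, 17 were divergent, with the minus-strand site to the left as at a promoter that fires in both directions, and 14 were convergent. The rest held 1687 pairs, of which 1072 were on the same strand, 408 divergent and 207 convergent. The divergent share of opposite-strand pairs was 54.8% in the ends (37.8 to 70.8), where an exact binomial test against an equal split gave p = 0.72, and 66.3% in the rest (62.5 to 70.0, exact p = 4.03e-16).

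The difference in the divergent share was -11.5 points with an interval of -28.9 to 4.95, so the few opposite-strand pairs of the ends could not tell them from the rest. With the limits moved 500 kb away from the centromere the share was 69.4% (exact p = 0.0094), and without 3R it was 47.4%. By arm the ends had 1 divergent and 5 convergent pairs on 2L, 4 and 3 on 3L, 8 and 4 on 3R, and 4 and 2 on X. At over 100 and up to 150 bp the ends had 5 divergent and 3 convergent pairs, against 114 and 31 in the rest. A site can belong to several pairs, so pairs are not independent.

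Chains, in which each site follows the last within 2000 bp whatever its strand, gathered on 3R and X. The ends held 7 chains of 5 or more sites, 4 on 3R and 3 on X, with 47 sites in all, 7.89% of the sites (5.98 to 10.3), against 4.60% (4.19 to 5.05) in the rest. On X 23 of 112 sites were in such chains, 20.5% (14.1 to 28.9), against 3.95% (3.18 to 4.90) in the rest of X, and on 3R 24 of 150, 16% (10.99 to 22.7), against 6.30% (5.47 to 7.24). The sites of a chain count together, but these intervals treat them as independent. They rest on 3 chains on X and 4 on 3R, so they are too narrow. None was found in the ends of 2L, 0 of 161 sites, or of 3L, 0 of 173. The Wilson intervals allow a share of up to 2.33% on 2L and up to 2.17% on 3L. The exact sign-flip permutation test over the 4 arms gave p = 0.5. With gaps of at most 1000 bp 2.01% of the sites in the ends and 2.29% in the rest were in chains of 5 or more, and with gaps of at most 5000 bp 19.5% in both, so of the 3 gaps tried the shares stood apart at 2000 bp only.

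The 3 chains on X lay within 46.1 kb, from 21770884 to 21817016, which held 31 sites, 27.7% of the X end. The largest had 11 sites over 5.01 kb, from 21799849 to 21804858, 3 on the plus and 8 on the minus strand. Its last 6 sites, from 21804212 on, were all on the minus strand. The chain at 21770884 to 21775628 had 3 plus-strand and 3 minus-strand sites at a median gap of 1350 bp. The chain at 21814938 to 21817016 had 4 plus-strand and 2 minus-strand sites, and in it a plus-strand site at 21815907 and a minus-strand site at 21815921 lay 14 bp apart.

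On 3R the largest chain had 8 sites over 4.70 kb, from 255003 to 259706. It ran in pairs, with 2 minus-strand sites, then 2 plus, 2 minus and 2 plus. The chain from 751931 to 756932 began with 4 minus-strand sites at gaps of 1197, 1099 and 1210 bp and ended with 2 plus-strand sites. The chain from 104276 to 108131 had 4 plus-strand sites followed by 1 on the minus strand. The chain from 910817 to 914529 held the 2 lowest-numbered sites of the 3R end, at 912431 and 912790 on the minus strand.

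**Figure D4:**
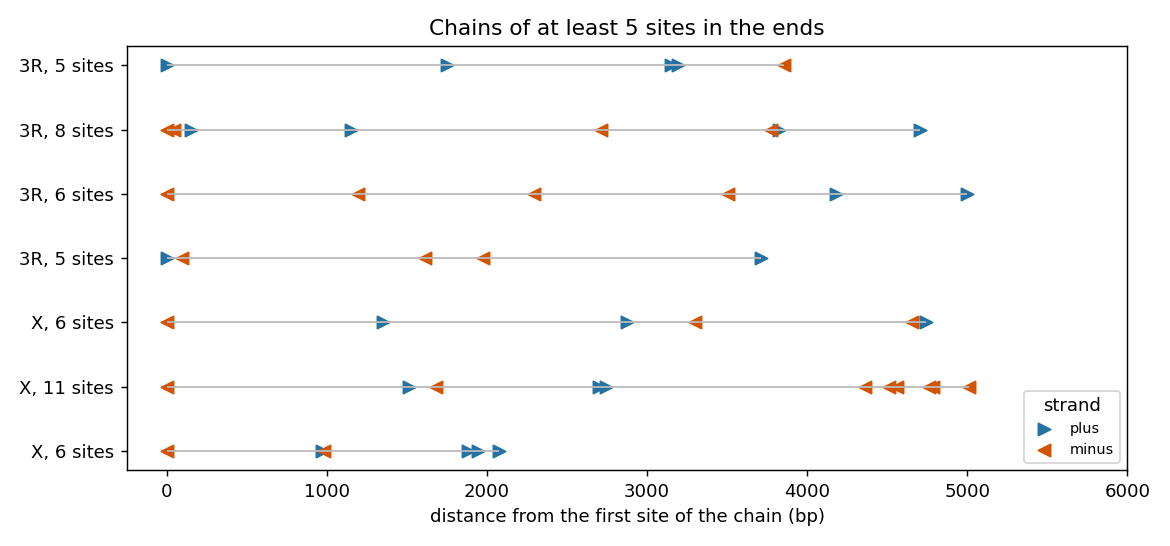
The 7 chains of at least 5 sites in the ends, each drawn from its first site (x axis, distance in bp), with arrowheads for the plus and the minus strand. The 11-site chain of X carries 6 minus-strand sites at its right end, and the 8-site chain of 3R alternates in pairs.

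Serial numbers run from 1 to 13218, and what they rank was not given in the sources used here, so they are not read as levels. The ends were short of low numbers. Of their sites 40 of 596, 6.71% (4.97 to 9.01), were among the lowest-numbered 10% of the list, numbers 1 to 1321, against 971 of 9216, 10.5% (9.93 to 11.2), in the rest. The difference was -3.82 points (Newcombe 95% interval -5.68 to -1.45). It was lower in all 4 ends, with 4.05% against 11.8% on 3L, 6.83% against 11.4% on 2L, 8% against 9.21% on 3R and 8.93% against 10.1% on X. An exact two-sided sign-flip permutation test over arms gave 2 of 16 sign flips as extreme, the smallest share that 4 arms allow, so this test could not pass the threshold.

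Only on 3L did the interval of the difference leave out 0 (-10.2 to -3.50), and without 3L the summed difference was -2.30 points. Among numbers 1 to 100 there were 4 sites of the ends, 0.67% of their sites (0.26 to 1.71), against 69, 0.75% (0.59 to 0.95), in the rest, too few to show a difference or its absence. Among numbers 1 to 1000 there were 26, 4.36% (2.99 to 6.32), against 731, 7.93% (7.40 to 8.501).

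Over the whole range the numbers differed little. The median was 6697 in the ends and 6666 in the rest, and the difference of medians was 26 on 2L, 310 on 3L, 601 on 3R and -1127 on X, end minus rest. The highest-numbered 25% held 24.7% of the sites in the ends (21.4 to 28.3) and 27.0% of those in the rest (26.1 to 27.9). Most numbers run in long series that ascend by chromosome and by position written as text, so a place on an arm sets part of a number there. Series of 40 or more sites held 78.2% of the sites in the ends and 73.8% of those in the rest. Of the 1011 sites of ends and rest among the lowest-numbered 10%, 0 lay in such a series of 40 or more sites. The same count for the 40 of these in the ends follows from this and does not set the ends apart. No series of that length thus enters the share of low numbers, in the ends or in the rest. Whether shorter series enter it was not tested.

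The lowest-numbered sites of the ends were number 35 at 21096911 on 2L (plus strand), numbers 62 and 73 on 3R, 359 bp apart, and number 84 at 21764603 on X (plus). The X site lay at the telomere-side edge of the dense stretch, 41 bp from another plus-strand site, at 21764562. On 3L the lowest number was 643, at 22705257 (plus), with a minus-strand site 126 bp away, followed by 843 at 24345497 (plus). The second-lowest were 296 at 21828595 on 2L and 401 at 21917035 on X, both on the plus strand.

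Within the ends the low numbers had no common order. The part of the 2L end nearer to it, cut at the middle of the end, had 2 of 85 sites among the lowest-numbered 10%, 2.35% (0.65 to 8.18), and the farther part 9 of 76, 11.8% (6.36 to 21.0). These intervals overlap, and the difference was not tested. In the other ends the nearer part had the higher share, with 12.1% (6.27 to 22.1) nearer and 4.35% (1.20 to 14.5) farther on X, 8.64% and 7.25% on 3R and 4.60% and 3.49% on 3L, and over all ends the shares were 6.58% nearer and 6.86% farther. Density was 99.7 sites per Mb in the nearer parts (89.0 to 111.3) and 86.6 in the farther parts (76.7 to 97.4).

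**Figure D5:**
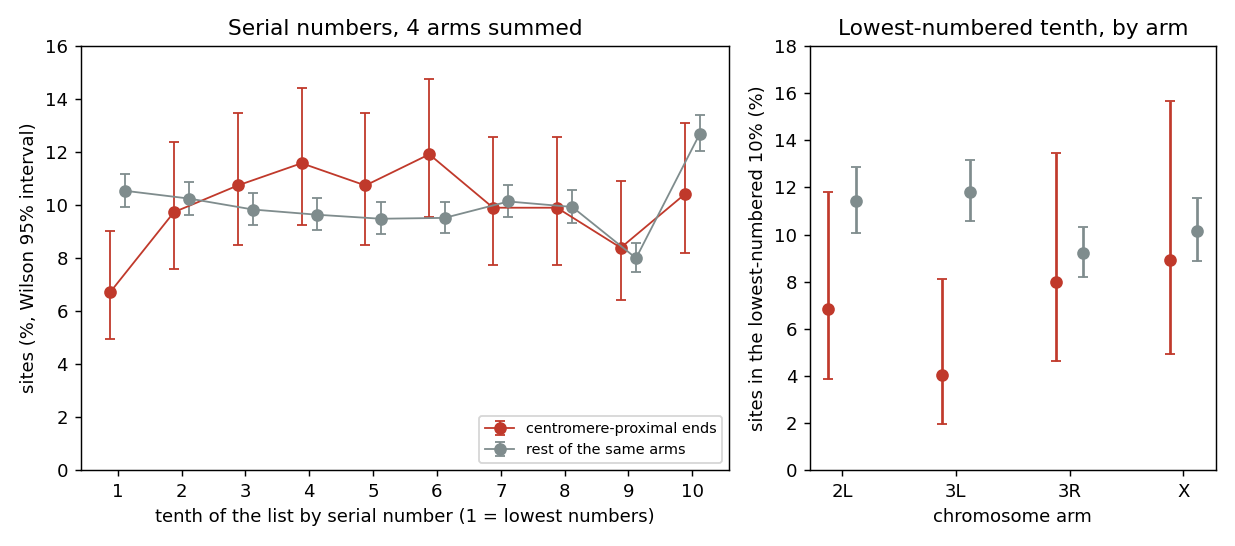
Share of sites in each 10% of the list by serial number (left) and in the lowest-numbered 10% by arm (right), in percent with Wilson 95% intervals, for the ends and the rest of the same arms. Among the lowest numbers the ends hold 6.71% and the rest 10.5%, and each end lies below the rest of its arm.

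The scaffolds named 2LHet, 3LHet, 3RHet and XHet in dm3 carry heterochromatic sequence and are the sequences most like the ends. The lowest-numbered 10% held 6.71% of the sites in the ends and 3.18% (1.94 to 5.19) of the 471 sites on these scaffolds, a difference of 3.53 points (0.87 to 6.14). Sites with no other within 1000 bp made up 61.6% of the ends and 73.6% (69.0 to 77.7) of the 394 sites on the scaffolds without XHet, a difference of -12.0 points (-17.7 to -6.07). With XHet, which holds a dense group of its own, the scaffolds had 63.3% (58.8 to 67.5), and the difference of -1.69 points had an interval that held 0. A same-strand site within 100 bp was listed for 11.4% of the sites in the ends and 6.35% (4.33 to 9.20) of those on the scaffolds without XHet, a difference of 5.06 points (1.39 to 8.51). With XHet the scaffolds had 14.6% (11.7 to 18.1). The difference was then -3.24 points (-7.42 to 0.80), of the opposite sign and with an interval that held 0. Leaving out XHet took a dense group from the scaffolds only, since the X end with its chains stayed among the ends. The neighbour contrasts thus depend on that choice.

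The second list of the series, 753 sites from BAC fragments, held none in the ends. Which regions the BACs cover was not given in the sources used here. The ends may lie outside them, so this absence shows nothing about initiation in the ends. The BAC sites nearest to the limits lay 1.45 Mb away on 2L, at 19549735, 1.67 Mb on 3R, 2.63 Mb on 3L and 5.22 Mb on X. No second measurement of these sites was thus at hand.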

How the data were processed

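The files used were lists deposited by the authors, with 1 line for each initiation site. Their values are positions in dm3, in no unit of level, with a strand and a serial number. Per the submitters' processing notes, the build was dm3. The same notes name Bowtie 0.12.9 and CASAVA 1.9.1 and give no role for them. How sites were called, filtered and numbered, and in which samples, was not given in the sources used here. Positions are the 1-based base of each site.

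The members, limits and tests were chosen with earlier results of these data known. Sites named in the text are those next to the limits, the outermost, the 2 lowest-numbered of each end, those in chains of 5 or more, and those at the widest gap of each end. The same-strand stretches, the dense windows, the further gaps and the sites named inside the X stretch and inside chains were chosen after their values were seen. Neither the comparison with the scaffolds nor the exclusion of XHet was in the design.

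Rates were taken per Mb from each limit to the outermost site, with exact Poisson intervals and exact conditional binomial tests. Shares have Wilson and their differences Newcombe intervals, all at 95%. Arms were compared by exact sign-flip permutation. These intervals cover counting error only, and the depth is unknown. Alternatives moved the limits, counted close same-strand sites once, left out arms, windows or high numbers, and changed the comparison stretch and distances. Tools were scipy 1.17.1, numpy 2.4.6, pandas 2.3.3 and matplotlib 3.10.9 under Python 3.11.15, and the functions were tested on simulated data. The design listed genes and motifs, which were not analysed here.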

Additional observations from a re-analysis of the deposited data

How the results depend on the processing

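Recomputed under alternatives, 172 values kept their direction and their side of the threshold where tested or, where not, stayed within the spread of the reported value or 1.5 times its count, and 29 did not. Some of these values could not move. Leaving out another arm keeps an arm's own density ratio and plus-strand share and changes only the adjustment of p. The BAC distances tried do not bear on the count of BAC sites in the ends. The tally is thus no measure of how firm the results are. Small untested differences did change sign within the spread of the reported value, in 11 of 91 values. The mean over arms of the difference in median number lay between -448.25 and 312 with 4 changes of sign, the opposite-strand difference within 1000 bp between -1.25 and 1.94 points with 4, the same-strand one between -6.52 and 1.36 points with 2, and the mean log2 density ratio between -0.25 and 0.00125 with 1. The share of low serial numbers stayed lower in the ends in all 14 of its alternatives, between -5.52 and -2.30 points. Where a value changed its call the cause was not tested, except that leaving out windows, sites or arms also leaves fewer sites. Leaving out the fullest window of each end, chosen after seeing the data and removed from the ends only, lowers densities and neighbour shares of the ends by construction, and gave density ratios of 0.83 on 2L, 1.19 on 3R and 0.72 on X, and same-strand neighbour differences of -6.26 points within 100 bp and -6.52 points within 1000 bp, so these values bear no call. Without the outermost 300 kb, also chosen after seeing the data, the 3R ratio was 1.01. Without the highest-numbered 25% it was 1.28 on 3R and 0.91 on 3L, both no longer past the threshold. The 3L ratio also missed the threshold at 0.84 and 0.88 with the limit 250 kb nearer to and farther from the centromere, and 0.87 with close sites counted once. The X ratio passed the threshold at 0.78 with the limit 500 kb farther out and at 0.70 against the telomere-proximal end. With limits 250 and 500 kb farther out the divergent share was 65.9% and 69.4%, and sites pointing towards the centromere made up 54.1% and 54.2%, all past an exact test. That share was 54.6% without the X stretch, an alternative added after seeing the data, and 50.4% to 55.8% with each arm left out. The divergent share was 47.4% to 64% with each arm left out and 50% at 22 to 500 bp. Plus-strand shares passed the adjusted exact test on 3L (57.8% and 58.9% with limits 250 and 500 kb farther out), on 3R (41.5%, 250 kb farther) and on X (39.5%, 250 kb farther; 34.4%, 250 kb nearer; 37.1%, close sites counted once). There were 2 chains of 5 or more sites with gaps of at most 1000 bp and 19 with 5000 bp. The run-middle numbers and the lowest-numbered 5% and 20% were likewise added after seeing the data. Same-strand neighbours within 100 bp are 0 by construction once close sites are counted once, and were not run. No paired analysis was possible because neither list gives values by sample. The unknown depth and mappable length of the ends limit every rate.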
